A study of Mus musculus with 4 samples.

Results

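Mcl1, Bcl2l1, Bcl2l11, Cflar and Casp8 are 5 regulators of apoptosis whose transcripts were followed here across the immune cells of mouse mammary tumours. They were taken by symbol from a count table of 4099 complete gene rows, and all 5 were found. The cells came from tumours that 4T1 cells, a BALB/c mammary carcinoma line, formed in BALB/c mice. The control group carried wild-type 4T1 cells and the other group Mif-depleted 4T1 cells, with 2 samples in each group and 3 tumours combined in every sample. The depletion is in the tumour cells. Titles of the Mif-depleted samples begin with sg, and beyond this prefix the labels give neither the method of depletion nor an age of the mice. In both groups dead cells were removed with a kit, and CD45-positive cells that excluded propidium iodide were sorted, so dying cells were depleted before the 10x Genomics libraries were made.

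The deposited names of 45781 cells fall into 23 cell types, and 16383 of these cells had counts here. Each barcode ends in a suffix from 1 to 4, and no header or label ties a suffix to a sample. The members were therefore described apart in suffix 1, with 13162 cells and 29567302 UMIs (unique molecular identifiers, one for each captured transcript), and in suffix 2, with 3221 cells and 8578852 UMIs. Mif-depleted and control tumours could not be compared, and which group either suffix belongs to is unknown. Results are given for names with at least 50 cells, 21 in suffix 1 and 14 in suffix 2, and these 2 suffixes shared 35 barcode sequences. Median counted UMIs per cell ran from 423 to 6227 between the reported names of suffix 1 and from 655 to 6220 in suffix 2.

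A level is the UMIs of a gene per 10000 counted UMIs, summed over the cells of a name, with its exact Poisson 95% interval in brackets. The table covers part of the genome, so the total is not the full depth of a cell. Cells are not replicates, so intervals cover counting error only, and no p-value or standard deviation is given. A log2 ratio compares a name with the remaining cells of that suffix, and it was called where its whole 95% interval lay beyond a 2-fold ratio. In suffix 1 the measured markers of neutrophils, macrophages, monocytes, B cells, regulatory T cells, NK cells and fibroblasts were each highest under a matching name. Only 1 of 3 NK cell markers (Xcl1), 2 of 4 monocyte markers and 2 of 3 fibroblast markers could be measured. Cells named cDC1_Clec9a had the highest summed level of the 4 osteoclast markers in the part of the table used here, 858 in suffix 1 and 1170 in suffix 2, followed by pDC with 216 and 279. Batf3, the only dendritic cell marker in that part, was highest in cDC1_Ccl22 of suffix 1. In suffix 2, where cDC1_Ccl22 was under the minimum of cells, Batf3 was highest in Macro_Mgl2 at 0.688. That part of the table holds 0 of the epithelial markers.

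Apoptosis runs along 2 routes. In the mitochondrial route, proteins of the BCL-2 family decide whether the outer mitochondrial membrane is opened: MCL-1 and BCL-XL, the products of Mcl1 and Bcl2l1, keep it closed, and BIM, the product of Bcl2l11, is a BH3-only protein that binds and neutralises them. In the death receptor route, caspase-8, the product of Casp8, is activated at the receptor, and cFLIP, the product of Cflar, takes its place there and restrains it. MCL-1 turns over quickly and is known as a survival factor of neutrophils and lymphocytes, and BIM limits the life span of many white blood cells.

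Among all 105 ratios of a member to a name in suffix 1, 3 were called higher, or 2.86%, where 7.5% of the ratios of all genes were. Another 13 were called lower, or 12.4%, against 9.56% of all genes. In suffix 2, 3 of 70 ratios were called higher, or 4.29%, beside 4.51% of all genes, and 7 were called lower, or 10.0%, beside 11.4%. On this scale the shares of the members were near or below those of all genes, except for the larger share called lower in suffix 1. Without S100a8 and S100a9 in the totals of suffix 1, 17.1% of member ratios and 10.7% of all ratios were called lower. As mean UMIs per cell the shares were 26.7% and 14.6%. Without neutrophils among the other cells the member share was no larger, 11.4% beside 12.1%. In suffix 2 the shares called lower were 11.4% and 10.1% without S100a8 and S100a9, 20.0% and 16.0% per cell, and 7.14% and 12.5% without neutrophils. Over the 14 names of both suffixes, 2 ratios were called higher in suffix 1 and 3 in suffix 2. Of these 1 was shared, Cflar in Mono_Ly6c2. Called lower were 8 in suffix 1 and 7 in suffix 2, with 5 shared. They were Mcl1 in CD4_Th and in epithelial cells, Bcl2l1 and Bcl2l11 in cDC1_Clec9a, and Casp8 in neutrophils. In neutrophils 73.5% of all genes were called lower in suffix 1 and 66.7% in suffix 2. The share of all genes called in both suffixes was not computed, so the shared calls are a description only.

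**Figure D1:**
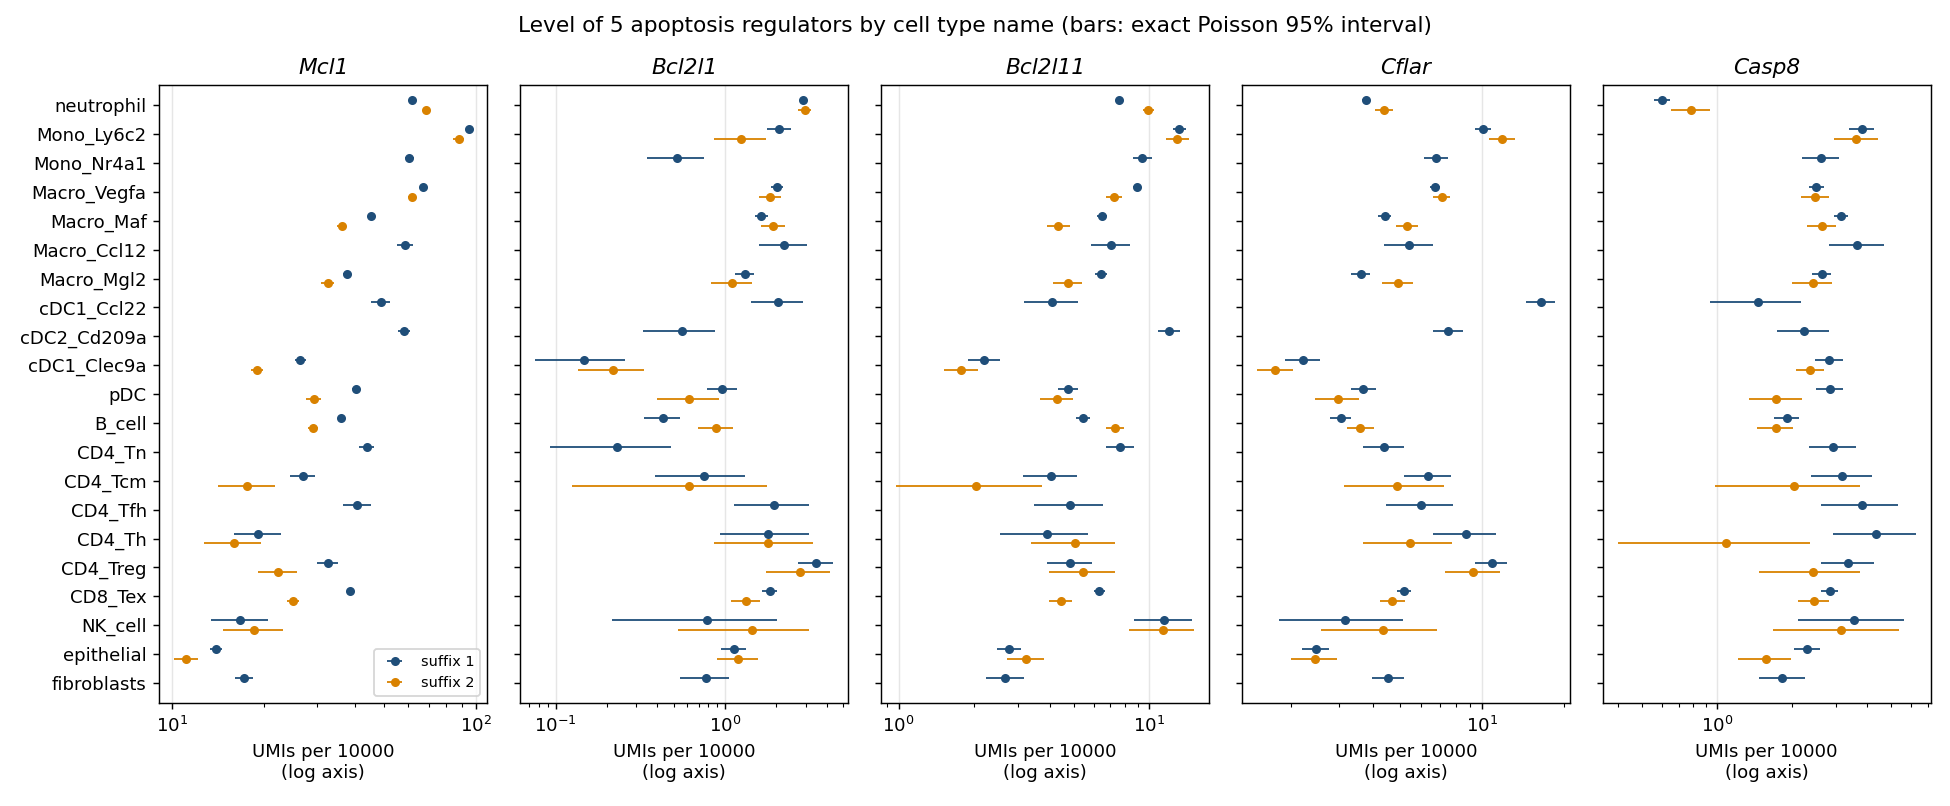
Level of each member (UMIs per 10000 counted UMIs, log axis) in every cell type name with at least 50 cells, for suffix 1 (blue) and suffix 2 (orange), with bars for the exact Poisson 95% interval. On these totals Mcl1 was highest in Mono_Ly6c2 and Casp8 lowest in neutrophils of both suffixes; without S100a8 and S100a9 in the totals neutrophils lead Mcl1 and are not the lowest for Casp8 in suffix 2.

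Mcl1 lies on chromosome 3 from 95658788 to 95663176 on the plus strand of GRCm38 (ENSMUSG00000038612.16), with no other annotated gene over it. Its level in suffix 1 had a lowest value of 13.9 [13.3, 14.6] in epithelial cells, a median of 40.2 over the 21 names and a highest value of 95.2 [93.0, 97.4] in Mono_Ly6c2. Below Mono_Ly6c2 followed Macro_Vegfa at 67.1 [66.3, 68.0], neutrophils at 61.6 [61.1, 62.0] and Mono_Nr4a1 at 60.4 [58.3, 62.5]. Monocytes, neutrophils and Vegfa macrophages thus had the highest values, and the intervals of neutrophils, Mono_Nr4a1 and Macro_Ccl12 (58.3) overlapped. The interval of cDC2_Cd209a, at 58.0 [55.4, 60.7], overlapped those of Mono_Nr4a1 and Macro_Ccl12, so this upper end had no clear lower border. At the lower end stood CD4_Th at 19.2 [16.0, 22.8], fibroblasts at 17.2 [16.1, 18.4] and NK cells at 16.8 [13.4, 20.7]. These 3 names overlapped one another, and they and epithelial cells were the 4 names called lower. The fibroblast ratio, -1.60, was -0.94 as mean UMIs per cell and then not called. Suffix 2 kept that shape: Mono_Ly6c2 had 87.7 [84.2, 91.3], neutrophils 68.8 [67.5, 70.1], Macro_Vegfa 61.5 [59.9, 63.0] and epithelial cells 11.1 [10.2, 12.2]. Spearman's rho of the Mcl1 level between suffixes was 0.95 over the 14 shared names. The upper end was not called in suffix 1, where the log2 ratio of Mono_Ly6c2 was 0.92 [0.89, 0.95]. It was 1.15 [1.09, 1.21], and called, in suffix 2. The first place rested on the totals: without S100a8 and S100a9, neutrophils had a Mcl1 level of 148 and Mono_Ly6c2 99.7 in suffix 1, and 163 and 88.8 in suffix 2. At the level of single cells, neutrophils in suffix 1 held a median of 10 Mcl1 UMIs with quartiles of 6 and 15, and Mono_Ly6c2 a median of 16 with quartiles of 8 and 27.

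Within macrophages Mcl1 stood apart by name. Macro_Vegfa had 67.1 and Macro_Maf 45.2, a log2 ratio of 0.57 [0.54, 0.60], and 0.77 [0.70, 0.83] in suffix 2. No member passed the 2-fold call between these names in suffix 1, where 1.95% of all genes did in either direction. Bcl2l11 was 8.96 against 6.49 and Cflar 6.74 against 4.40, both higher in Macro_Vegfa with intervals above equality, whereas Casp8 was 2.49 against 3.13 with an interval below it. In suffix 2 Casp8 gave a log2 ratio of -0.09 [-0.36, 0.18], which includes equality. Bcl2l1 gave 0.31 [0.14, 0.48] in suffix 1 and -0.06 [-0.37, 0.26] in suffix 2. S100a8 and S100a9, transcripts of neutrophils, summed to 671 in Macro_Vegfa and 181 in Macro_Maf, and their part in these differences was not tested.

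Bcl2l1 (chromosome 2, 152780668 to 152831728, minus strand, ENSMUSG00000007659.18) was high in one T cell name and low in another. Its level in suffix 1 ran from 0.147 [0.0757, 0.256] in cDC1_Clec9a through a median of 1.32 to 3.45 [2.69, 4.36] in CD4_Treg, the cells that also had the highest summed level of Il2ra, Ctla4 and Ikzf2 markers. Neutrophils came next at 2.90 [2.80, 3.01], and the intervals of these 2 names overlapped. In suffix 2 neutrophils had 2.96 [2.70, 3.23], CD4_Treg 2.78 [1.76, 4.17] and cDC1_Clec9a 0.219 [0.135, 0.334]. Called lower in suffix 1 were cDC2_Cd209a (0.556), Mono_Nr4a1 (0.522), B cells (0.429 [0.335, 0.541]), CD4_Tn (0.232) and cDC1_Clec9a. B cells were not called in suffix 2, with a higher level of 0.887 [0.698, 1.11] and a log2 ratio of -0.89. CD4_Tn rested on 7 Bcl2l1 UMIs in 462 cells. The cDC1_Clec9a value rested on 12 UMIs in 165 cells, which carried the osteoclast markers given above. Set directly against CD4_Tn, CD4_Treg had a Bcl2l1 log2 ratio of 3.89 [2.77, 5.26], which was called, as were 11.3% of all genes between these names. In suffix 2 the ratio was 3.30 [0.67, 8.66], from 1 UMI in CD4_Tn. Between the monocyte names, Mono_Ly6c2 had 2.09 and Mono_Nr4a1 0.522, a called log2 ratio of 2.00 [1.42, 2.64] where 4.76% of all genes were called. Suffix 2 did not show it at that size, with 0.78 [-0.59, 2.49] from 5 UMIs in Mono_Nr4a1.

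After each cell was thinned to 500 UMIs, 16.3% of 5126 neutrophils held a Bcl2l1 UMI, with an exact Clopper-Pearson interval from 15.2% to 17.3%, and 586 shallower cells were left out. Unthinned, the share was 36.8% at a median of 1120 UMIs. In CD4_Tn the thinned share was 1.08% of 371 cells, from 0.294% to 2.74%, with 91 cells left out, and the unthinned share was 1.52% at a median of 623 UMIs. In cDC1_Clec9a it was 0 of 150, which allows a share of up to 2.0% by a limit of 3 cells, the exact interval reaching 2.43%, with 15 cells left out, and 6.67% unthinned at a median of 4857 UMIs. The share in neutrophils lay above both, and those of CD4_Tn and cDC1_Clec9a are not read as expression, since free RNA can give such a share.

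Bcl2l11 (chromosome 2, 128126038 to 128162547, plus strand, ENSMUSG00000027381.16) followed part of the Mcl1 order. In suffix 1 it was highest in Mono_Ly6c2 at 13.2 [12.4, 14.0], cDC2_Cd209a at 11.98 [10.8, 13.2] and NK cells at 11.4 [8.69, 14.8], with overlapping intervals. Without S100a8 and S100a9 in the totals neutrophils came first, at 18.2 against 13.8 in Mono_Ly6c2, and at 23.4 against 13.1 in suffix 2. The median name had 6.32, and the lowest were epithelial cells at 2.76, fibroblasts at 2.66 and cDC1_Clec9a at 2.20 [1.89, 2.54], the 3 names called lower. As mean UMIs per cell the log2 ratio of cDC1_Clec9a was -0.53 and that of fibroblasts -0.75, neither called. Suffix 2 had 12.9 [11.6, 14.4] in Mono_Ly6c2, 11.3 [8.32, 15.1] in NK cells, 9.92 [9.44, 10.4] in neutrophils and 1.78 [1.52, 2.07] in cDC1_Clec9a. NK cells were few, with 58 and 53 cells and 58 and 47 Bcl2l11 UMIs, but both suffixes placed them near the top for Bcl2l11 and in the lower part for Mcl1. Among all genes the Bcl2l11 log2 ratio of NK cells was not extreme, with 0.71 above 52.4% of genes in suffix 1 and 0.89 above 67.5% in suffix 2. As mean UMIs per cell it was -0.65 and -0.89. Across names, Spearman's rho between Bcl2l11 and Mcl1 was 0.67 in suffix 1 and 0.49 in suffix 2. The levels within a suffix share libraries and denominators, so this is a description only.

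Cflar (chromosome 1, 58711508 to 58758884, ENSMUSG00000026031.15) and Casp8 (chromosome 1, 58795374 to 58847503, ENSMUSG00000026029.14) are neighbours on the plus strand, with 36489 bases between them. Gm37760, a gene model of uncertain class, lies within the GENCODE span of Casp8 on the same strand. Whether reads from it were counted as Casp8 was not tested. The promoter windows of both, 300 bases from RefSeq on GRCm38.p6 that end 50 bases past the start, are printed because the UMI ratio of these neighbours, given further on, ran from 0.787 to 11.2 over cell types. Cflar is chr1:58711241-58711540 and Casp8 chr1:58802252-58802551, both on the plus strand, and capitals mark matches to a motif on either strand. The RefSeq start of Casp8 lies 7128 bases after the GENCODE start given above, so this window is inside the GENCODE gene.
Cflar: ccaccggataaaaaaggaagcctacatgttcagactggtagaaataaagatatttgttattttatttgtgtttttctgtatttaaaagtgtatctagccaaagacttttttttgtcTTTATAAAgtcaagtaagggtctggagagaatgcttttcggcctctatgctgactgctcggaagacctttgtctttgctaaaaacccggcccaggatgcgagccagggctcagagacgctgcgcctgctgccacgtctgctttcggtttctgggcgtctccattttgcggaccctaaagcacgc
Casp8: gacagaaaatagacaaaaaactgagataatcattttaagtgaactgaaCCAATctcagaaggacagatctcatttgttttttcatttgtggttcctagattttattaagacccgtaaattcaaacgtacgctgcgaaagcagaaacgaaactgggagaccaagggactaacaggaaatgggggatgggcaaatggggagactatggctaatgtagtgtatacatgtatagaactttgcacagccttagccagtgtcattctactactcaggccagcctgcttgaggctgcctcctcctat
The Cflar window holds TATAAA on both strands, as overlapping matches, and the Casp8 window holds CCAAT. The first motif is in 13.6% and the second in 37.4% of all 32851 windows of this length. Neither window has a match to the GC box GGGCGG, found in 35.7% of windows, the cAMP response element TGACGTCA, found in 1.79%, or the STAT motif TTCNNNGAA, found in 8.3%. Nor was there one to the E-box CACGTG, found in 7.15%, the ETS motif CCGGAAG, found in 8.86%, or the NF-kB motif, found in 4.51%. This says only that these letters are not in these windows. The GC content was 45.0% for Cflar and 42.0% for Casp8, under the median of 52.7%.

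Cflar was the member with calls above 2-fold in suffix 1. Its level was 16.4 [14.5, 18.5] in cDC1_Ccl22, 10.8 [9.46, 12.4] in CD4_Treg and 10.1 [9.39, 10.8] in Mono_Ly6c2, the 3 names called higher, against a median of 5.19. The value of cDC1_Ccl22, whose log2 ratio was 1.85 [1.67, 2.02], lay above the intervals of all 20 other names. With 39 cells in suffix 2, cDC1_Ccl22 was under the minimum there. The lowest levels were 2.46 in epithelial cells and 2.21 [1.90, 2.56] in cDC1_Clec9a. Suffix 2 had 11.9 [10.6, 13.2] in Mono_Ly6c2, 9.30 [7.34, 11.6] in CD4_Treg and 1.75 [1.49, 2.03] in cDC1_Clec9a. The log2 ratio of CD4_Treg, 1.24 [1.04, 1.43], rested on the scaling: it was 0.85 without S100a8 and S100a9 in the totals -0.06 as mean UMIs per cell, 0.98 with each cell weighted equally and 1.10 without neutrophils among the other cells, called under none of these. That of Mono_Ly6c2, 1.17 [1.06, 1.28], was 0.83 without S100a8 and S100a9, 1.05 per cell and 1.04 without neutrophils, and it too was not called under these. That of cDC1_Ccl22 was called under each of them, at 1.5 to 1.82. Against CD4_Tn, the Cflar log2 ratio of CD4_Treg was 1.31 [0.99, 1.63] in suffix 1 and 1.58 [0.66, 2.64] in suffix 2, above equality but not called.

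The place of neutrophils in the order of Casp8 depended on the totals. In suffix 1 the other 20 names had levels from 1.46 [0.937, 2.18] in cDC1_Ccl22 to 4.35 [2.91, 6.25] in CD4_Th, with Mono_Ly6c2 at 3.80 [3.37, 4.26]. Neighbouring names in that order had overlapping intervals in 19 of 20 pairs. Neutrophils had 0.601 [0.556, 0.649], below every other interval. In suffix 2 they had 0.784 [0.653, 0.932], the lowest value, with an interval that overlapped that of CD4_Th alone. With S100a8 and S100a9 left out of the totals, neutrophil Casp8 was 1.45 in suffix 1, beside 1.52 in cDC1_Ccl22. In suffix 2 it was then 1.85, above pDC at 1.79, B cells at 1.74, epithelial cells at 1.57 and CD4_Th at 1.09, and so no longer the lowest. The order was poorly kept between suffixes, with a rho of 0.41 over 14 names. CD4_Th, highest in suffix 1 with 29 UMIs, had 1.09 [0.398, 2.36] from 6 UMIs in suffix 2.

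Neutrophils require care with every level, since S100a8 and S100a9 made up 58.5% of their counted UMIs in suffix 1 and 57.7% in suffix 2. In suffix 1, 73.5% of all genes were called lower in neutrophils and 2.59% higher, and the median log2 ratio of all genes was -2.35. In suffix 2 these shares were 66.7% and 2.82%, and the median was -2.18. Of the members, 1 of 5 was called lower in each suffix, Casp8, at -2.17 [-2.29, -2.05] and -1.53 [-1.80, -1.27]. With S100a8 and S100a9 left out of the totals it stood at -0.96 and -0.32 and was not called in suffix 1. The Casp8 ratio thus lay near the typical gene, above 53.8% of genes in suffix 1 and 64.8% in suffix 2. The other 4 members lay high among all genes. For Bcl2l1 it was 1.05 [0.97, 1.12] in suffix 1, above 97.0% of genes, and 1.25 [1.09, 1.41] in suffix 2, where it was called. Mcl1 had 0.43 and 0.99, Bcl2l11 0.18 and 0.92, and Cflar -0.45 and -0.18, each above at least 86.2% of genes in both suffixes. Without S100a8 and S100a9 in the totals the ratios in suffix 1 were 2.25 for Bcl2l1, 1.64 for Mcl1, 1.38 for Bcl2l11 and 0.76 for Cflar. The neutrophil level of Bcl2l1 was then 6.99, above every other name. As mean UMIs per cell these ratios were 0.63, 0.02, -0.24 and -0.86. On that scale neutrophils were not first for Bcl2l1, with 0.55 UMIs per cell beside 0.93 in Macro_Mgl2. After thinning to 500 UMIs, 3.71% of neutrophils held a Casp8 UMI and 20.3% a Cflar UMI, against 9.63% and 43.1% unthinned.

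Ratios of summed UMIs between a pair of genes do not depend on the totals. They were compared between names only, since capture may differ between genes. The ratio of Cflar to Casp8 had a median of 1.84 over 21 names in suffix 1. It was 11.2 [7.37, 17.8] in cDC1_Ccl22 and 6.25 [5.75, 6.80] in neutrophils, both above the intervals of all remaining names, and 0.787 [0.644, 0.960] in cDC1_Clec9a, the lowest. In suffix 2 neutrophils had 5.58 [4.61, 6.79] and cDC1_Clec9a 0.740 [0.603, 0.908], around a median of 2.06. Next below neutrophils stood cDC2_Cd209a at 3.39 and CD4_Treg at 3.24 in suffix 1, and CD4_Th at 5.00 [2.05, 14.7] and CD4_Treg at 3.85 in suffix 2. The Cflar level of neutrophils was 3.76, below the median name, and 9.06 without S100a8 and S100a9, where cDC1_Ccl22 (17.0), CD4_Treg (10.9) and Mono_Ly6c2 (10.6) lay above it.

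**Figure D2:**
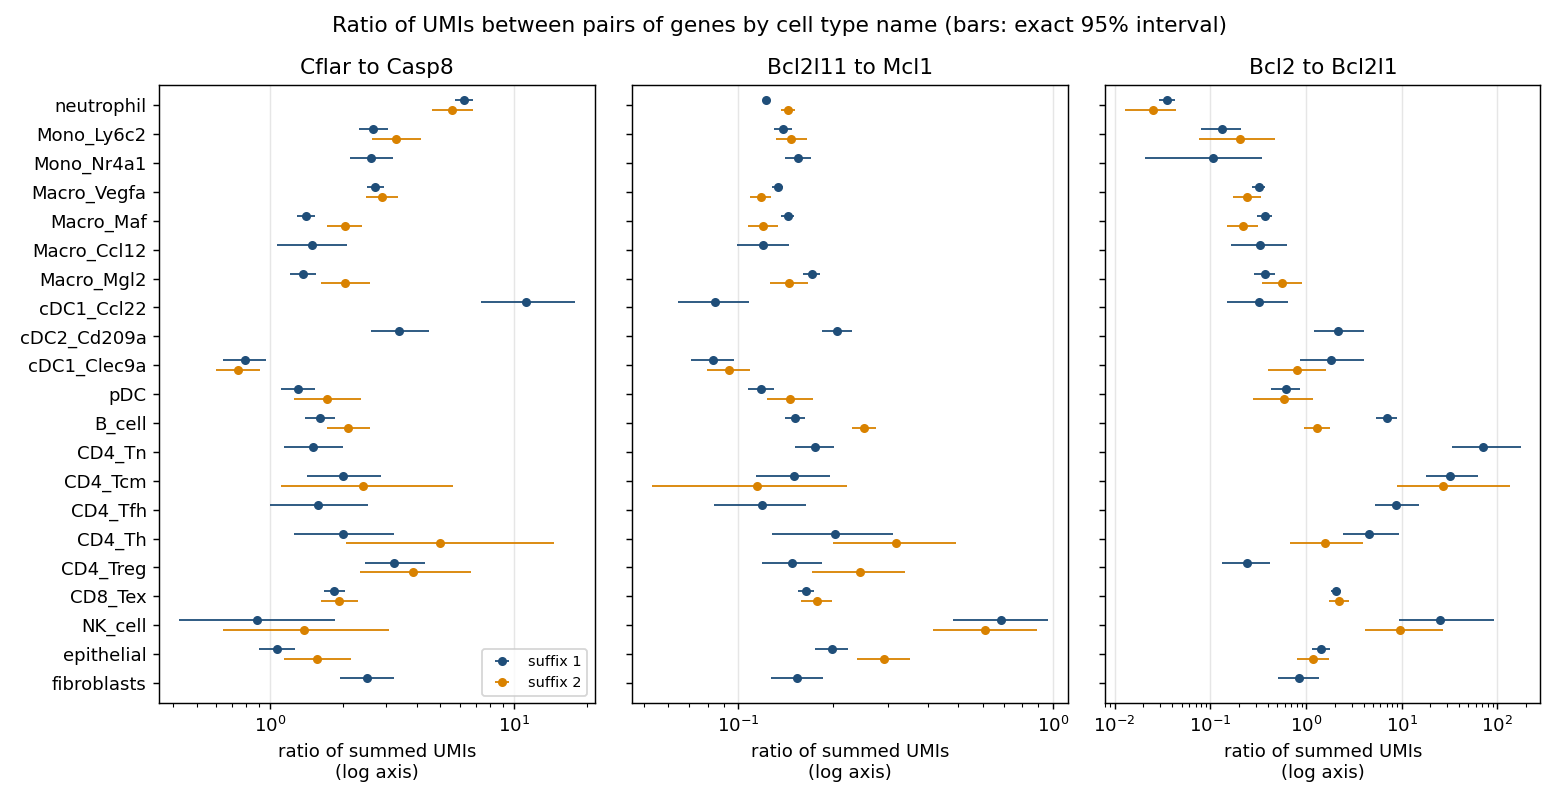
Ratio of summed UMIs between pairs of genes (log axis) by cell type name, for suffix 1 (blue) and suffix 2 (orange), with exact 95% intervals; a name with 0 Bcl2 UMIs is not drawn. Cflar to Casp8 peaked in cDC1_Ccl22 (11.2) and neutrophils (6.25), Bcl2l11 to Mcl1 in NK cells (0.682), and Bcl2 to Bcl2l1 in CD4_Tn (70.4) of suffix 1. The CD4_Tn value rested on 7 Bcl2l1 UMIs.

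Bcl2l11 to Mcl1, a BH3-only gene against a protector, had NK cells at the top of both suffixes. The ratio was 0.682 [0.480, 0.964] in suffix 1 and 0.610 [0.415, 0.889] in suffix 2, with medians of 0.150 and 0.147 over all names. In suffix 1 no other name reached this interval, and the next was cDC2_Cd209a at 0.207 [0.185, 0.231]. In suffix 2 the next, CD4_Th at 0.318 [0.2, 0.492], overlapped it. The lowest were cDC1_Clec9a at 0.0831 and cDC1_Ccl22 at 0.0841 in suffix 1. Bcl2l1 to Mcl1 was highest in CD4_Treg, 0.106 [0.0818, 0.136] and 0.124 [0.0769, 0.192], and lowest in CD4_Tn of suffix 1 at 0.00532.

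NK cells and CD8_Tex, the cytotoxic names, were set against each other. In suffix 1 Bcl2l11 was 11.4 in NK cells and 6.32 in CD8_Tex, a log2 ratio of 0.85 [0.45, 1.23], and 1.35 [0.88, 1.80] in suffix 2. Mcl1 was 16.8 against 38.5, a log2 ratio of -1.20 [-1.53, -0.89], and -0.43 [-0.78, -0.10] in suffix 2. No member was called, where 4.75% of all genes were in suffix 1. CD8_Tex cells carried C1q, the complement genes of macrophages, at a summed level of 202 in suffix 1 and 98.1 in suffix 2, beside 223 and 189 in Macro_Vegfa and 8.68 and 8.20 in NK cells. In the 106 CD8_Tex cells of suffix 1 with 0 C1q UMIs, Mcl1 was 19.3 [17.3, 21.3], and in the 253 with 5 or more it was 44.1 [43.1, 45.2]. Suffix 2 had 17.2 [15.3, 19.3] in 91 cells and 33.9 [32.0, 35.9] in 52. The Mcl1 interval of NK cells overlapped that of CD8_Tex cells without C1q in both suffixes. Bcl2l11 in those cells was 4.34 and 3.74, below the NK cell intervals. Casp8 was 3.07 in the cells without C1q and 2.70 in those with 5 or more in suffix 1, with overlapping intervals. The cells without C1q also had fewer UMIs, with a median of 1169.5 against 5447 in suffix 1, and the part of depth in this was not tested.

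**Figure D3:**
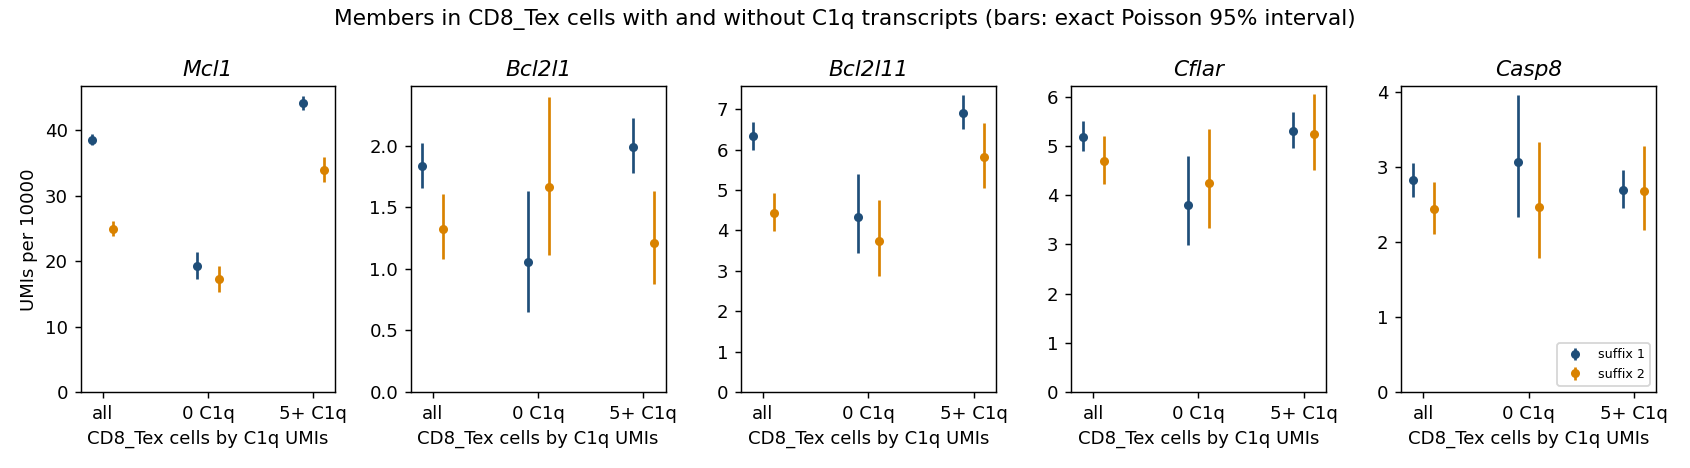
Level of each member (UMIs per 10000 counted UMIs) in all CD8_Tex cells, in those with 0 C1q UMIs and in those with 5 or more, for suffix 1 (blue) and suffix 2 (orange), with exact Poisson 95% intervals. Mcl1 was 19.3 without and 44.1 with C1q in suffix 1, and the Casp8 intervals overlapped.

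Other genes of both routes were taken from lists of 69 genes, of which 30 are in the part of the count table used here and 29 had at least 50 UMIs in suffix 1. Over 609 ratios of a listed gene to a name, members included, 62 were called higher, or 10.2%, and 63 lower, or 10.3%, beside 7.5% and 9.56% of all genes. The 6 listed inhibitors of apoptosis were not analysed here, since none is in the part of the table used. In neutrophils 21 of the 29 were called lower, or 72.4%, beside 73.5% of all genes, and 0 higher, with a median log2 ratio of -2.04 beside -2.35 for all genes. The list thus stood near the background in neutrophils.

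Bcl2, the founding protector of the family, and Bcl2l1 differed in opposite directions between CD4_Treg and CD4_Tn. Its level in suffix 1 was 23.9 in CD4_Tcm, 19.7 in NK cells, 16.9 in CD4_Tfh and 16.4 in CD4_Tn, and 0.838 in CD4_Treg. CD4_Treg against CD4_Tn gave a called Bcl2 log2 ratio of -4.29 [-5.08, -3.59], where Bcl2l1 gave 3.89. In suffix 2 CD4_Treg had 0 Bcl2 UMIs, which allows up to 3, and 23 Bcl2l1 UMIs. The ratio of Bcl2 to Bcl2l1 was 70.4 [33.9, 176] in CD4_Tn, 32.0 [18.1, 62.5] in CD4_Tcm and 25.0 [9.47, 93.5] in NK cells. These rested on only 7, 12 and 4 Bcl2l1 UMIs, and the Bcl2l1 share of CD4_Tn was not read as expression. It was 0.243 [0.134, 0.417] in CD4_Treg and 0.0351 [0.0288, 0.0425] in neutrophils. In suffix 2 the ratio was 27.3 [9.03, 135] in CD4_Tcm, 9.67 [4.18, 27.4] in NK cells and 0.0251 [0.0129, 0.0442] in neutrophils. NK cells against CD8_Tex had a called Bcl2 log2 ratio of 2.38 [2.07, 2.68], and 2.26 in suffix 2. CD8_Tex cells were not split by C1q for Bcl2, so the part of macrophage transcripts in this difference was not tested.

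Among pore formers and BH3-only genes, Bok had 3.17 in epithelial cells and 1.48 in fibroblasts, both called higher, and was called lower in 8 names. Bmf was called higher in cDC1_Ccl22 (0.731, from 12 UMIs) and B cells (0.387) and lower in neutrophils. Of the caspases and their nuclease, Casp9, the initiator of the mitochondrial route, and Dedd had no name called higher. Casp6 was highest in cDC2_Cd209a at 3.27 without a call. Dffa and Dffb, the subunits of the DNA fragmentation factor, were called higher in B cells (0.435 and 0.508). These levels and calls are those of suffix 1. In suffix 2, where cDC1_Ccl22 and fibroblasts were under the minimum of cells, Bmf and Dffa had 0 names called higher, and Bok and Dffb 1 each.

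The death ligands Fasl and Tnfsf10 and the receptor Tnfrsf25 had their highest levels in lymphocytes of suffix 1. Fasl, the ligand of the death receptor FAS, had 4.14 in NK cells, 1.05 in CD4_Th and 0.818 in CD8_Tex, all called higher. In suffix 2 it had 7.23 in NK cells and 1.59 in CD8_Tex, and 0 UMIs in CD4_Th, whose value in suffix 1 came from 7 UMIs. Tnfsf10, which encodes TRAIL, had 3.15 in CD4_Th and 2.96 in NK cells and was called higher in 6 names. In suffix 2 NK cells had 1.69, CD8_Tex 1.58 and CD4_Th 0.542. Tnfsf15 was called higher in fibroblasts (0.223) and Macro_Vegfa (0.0734) of suffix 1, and its 17 UMIs in suffix 2 were too few for a ratio. Tnfrsf25, a death receptor of T cells, was called higher in 6 names of suffix 1, led by CD4_Th at 2.70, and in 4 of suffix 2. Tnfrsf1b, the second TNF receptor, was called higher in CD4_Treg alone in suffix 1, at 14.8, and in 2 names in suffix 2.

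Traf1 and Nfkb1 act in TNF receptor signalling. Traf1, an adaptor at TNF receptors, had 44.6 in cDC1_Ccl22, a called log2 ratio of 3.98, and 14.9 in CD4_Th and 14.6 in CD4_Treg, both also called, and was called higher in 7 names in all. Nfkb1, a subunit of NF-kB, was called higher in 5 names, led by CD4_Th at 26.6, cDC1_Ccl22 at 20.4 and CD4_Treg at 19.7. Traf2 was called higher in CD4_Treg (1.58), Traf5 in B cells (1.86) and 2 other names, and Traf6 (2.32 in cDC1_Ccl22) and Bcl10 (10.7 in Mono_Nr4a1) in none. Of the remaining regulators, Trp53bp2 was called higher in Mono_Nr4a1 (2.80) and Mono_Ly6c2 (2.45), and Pea15a in fibroblasts (3.85) and Macro_Maf (3.37). Dap3 was called higher in epithelial cells (2.74), Bcl2l15 in 5 names led by CD4_Treg (1.43), and Endog, a mitochondrial nuclease, in cDC1_Clec9a (2.74) and pDC (1.68). All these calls are of suffix 1. In suffix 2, cDC1_Ccl22, Mono_Nr4a1 and fibroblasts were under the minimum of cells, so the counts of names are not comparable with those of suffix 1. Traf2, Dap3 and Trp53bp2 had 0 names called higher in suffix 2. Traf1, Nfkb1, Pea15a and Endog had 1 each there, and Traf5 and Bcl2l15 2 each.

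**Figure D4:**
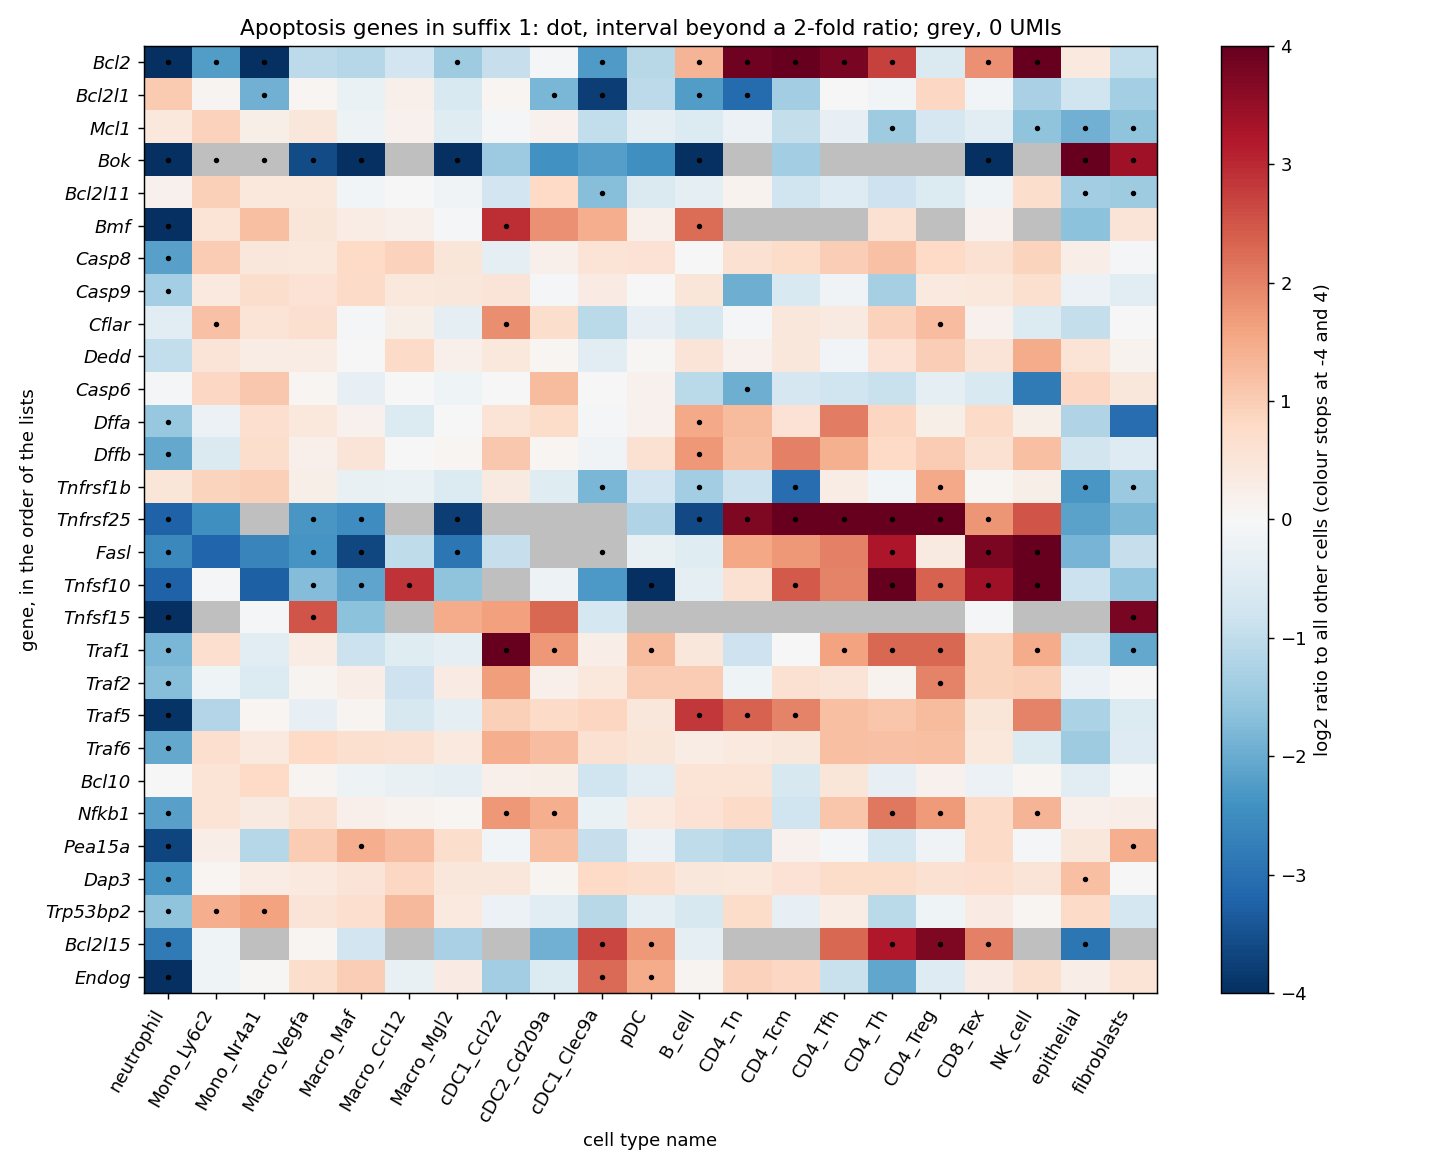
Log2 ratio of each listed apoptosis gene to all other cells (colour, limited to -4 and 4) by cell type name in suffix 1; a dot marks an interval wholly beyond a 2-fold ratio and grey a name with 0 UMIs. In the neutrophil column 21 of 29 genes were called lower and 0 higher, a share near the 73.5% of all genes called lower there.

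The genes whose levels were ordered most like each member over the 21 names of suffix 1 were sought among 1960 genes, with Spearman's rho as the measure and its value over 14 names in suffix 2 second. For Mcl1 they were Ptpn1 (0.83 and 0.56), Ptafr (0.82 and 0.94) and Osbpl9 (0.78 and 0.53). For Bcl2l1 they were Gbp2b (0.82 and 0.48), Gbp2 (0.69 and 0.43) and Slc22a15 (0.65 and 0.39). For Bcl2l11 they were Osbpl9 (0.91 and 0.63), Atp8b4 (0.86 and 0.30) and Zcchc2 (0.81 and 0.50). Stx6 (0.82 and 0.78), Ass1 (0.74 and 0.69) and Traf6 (0.73 and 0.24) came closest to Cflar, and Mgat5 (0.81 and 0.52), Srgap2 (0.77 and 0.28) and Gbp7 (0.76 and 0.46) to Casp8. Ptafr was the only one of these whose rho was higher in suffix 2, and the values of all points share libraries and denominators.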

How the data were processed

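Single-cell RNA was measured in CD45-positive cells of 4 samples. The authors deposited whole UMI counts for each gene in each cell. Cell type names are text deposited by the authors. The submitters' processing notes list Cell Ranger and Seurat, with no role or version, and the build GRCm38 (mm10). How cells were filtered and named, and how doublets were handled, is not given in the sources used here. No doublet caller was run.

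Python 3.11.15 with scipy 1.17.1 summed UMIs per name and suffix. Names under 50 cells were left out, results of 1 further name are not reported here, and 1 incomplete gene row was dropped. Suffix 2 had counts for 26.9% of its named cells. Ratios needed 50 or more UMIs over both sides and carry exact conditional binomial 95% intervals. The scripts were tested on simulated data. Tests between the groups were not run, because no suffix is tied to a sample. Positions come from GENCODE on GRCm38.

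The members and gene lists were chosen with earlier results of these data known. Named genes were the members, every listed gene with 50 or more UMIs in suffix 1, and the 3 genes most alike each member with 1000 or more UMIs. Alternatives changed the totals, scale, cells and weighting. The comparison without neutrophils and the 4 pairs of names were chosen after seeing the data.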

Additional observations from a re-analysis of the deposited data

How the results depend on the processing

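No paired analysis was possible because no cell is tied to a sample. The planned tests between groups, with another normalization, with a replicate block and without each replicate, were not run. Few UMIs limit NK cells, with 85 Mcl1 and 4 Bcl2l1 UMIs in suffix 1, and CD4_Tn, with 7 Bcl2l1 UMIs. Restricting cells to 500 or more UMIs kept the call, or its absence, of all 105 member ratios of suffix 1, and leaving S100a8 and S100a9 out of the totals kept it for 93.

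Under that change Bcl2l1 in neutrophils was 2.25 and called, Casp8 in neutrophils -0.96 and not called, and Cflar in cDC1_Clec9a -1.49 and called. As mean UMIs per cell, Bcl2l11 in cDC1_Clec9a was -0.53 and not called, Mcl1 and Bcl2l11 in fibroblasts -0.94 and -0.75 and not called, and Cflar in CD4_Treg turned to -0.06. With neutrophils left out of the other cells, Mcl1 in Mono_Ly6c2 was 1.13 and Cflar in cDC1_Clec9a -1.25, both called. In CD8_Tex cells with 0 C1q UMIs, Cflar to Casp8 was 1.24. The share of neutrophils with a Casp8 UMI was 9.63% unthinned and 4.43% at 1000 UMIs, and with a Bcl2l1 UMI 36.8% and 25.6%. The cause of these changes was not tested.

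As mean UMIs per cell, 14 member ratios of suffix 1 were called higher, or 13.3% beside 18.3% of all genes, and 28 lower, or 26.7% beside 14.6%. The main counts were 3 and 13. Ratios with each cell weighted equally have no interval and were judged on their value alone. Of the member ratios 8 were beyond 2-fold higher, or 7.62% beside 20.5% of all genes, and 27 lower, or 25.7% beside 19.9%. Of the main ratios judged so, 6 were higher, or 5.71% beside 18.8% of all genes, and 18 lower, or 17.1% beside 17.7%. Of all called ratios in suffix 1, 43.9% were higher, and 31.3% without S100a8 and S100a9, 55.5% per cell and 26.1% without neutrophils. In suffix 2 these were 28.3% and, per cell, 41.1%. Leaving out S100a8 and S100a9 moved the median log2 ratio of all genes by 1.21 in neutrophils.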
